A study of Mus musculus with 35 samples.

Results

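The genes described here are 32 genes of amino acid supply and of the cell's response when that supply or protein folding fails. They were chosen by name, with earlier results of these data known. All 32 were found in the authors' merged transcript assemblies, among 23905 gene names in batch 1 and 23906 in batch 3. RNA was sequenced from cultured mouse neural progenitor cells, which are dividing precursors of neurons and glia, taken at the embryo stage. They carried no, 1 or 2 deleted alleles of Mettl14 and are called WT (wild type), Het (heterozygous) and KO (knockout). Mettl14 encodes a subunit of the enzyme complex that writes m6A (N6-methyladenosine) into messenger RNA. Batch 1 had 3 WT, 3 Het and 3 KO libraries and batch 3 had 2 WT and 2 KO libraries, with no treatment in any group. The series also mapped m6A in WT cultures and 2 histone marks in 2 WT and 2 KO lines.

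The labels describe conventional knockout mice, made by crossing a floxed allele with EIIa-Cre mice and intercrossing the heterozygotes. They also describe floxed mice bred with nestin-Cre mice, which delete the gene in the brain, and do not say which cross gave which line. Each library has a culture line of its own in the labels. The expression tables number the libraries within a group without naming the line, so a library number below names a column of the table only.

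Cells short of an amino acid, or with unfolded protein in the endoplasmic reticulum (ER), phosphorylate the initiation factor eIF2. Bulk translation then falls while the transcription factor ATF4 is made in larger amounts from its messenger RNA. With C/EBP-family partners ATF4 binds C/EBP-ATF response elements and raises genes for amino acid synthesis, amino acid uptake and transfer RNA charging. Unfolded protein in the ER also acts through ATF6 and XBP1, which raise ER chaperones. Because ATF4 is controlled mostly by translation, the level of Atf4 RNA is not a measure of its protein.

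The libraries held 14087371 to 20046524 fragments. All 8 progenitor markers were present in every group, and their summed level was 6730 to 7340 CPM (fragment counts scaled to the size of the library) in batch 1 WT, 6940 to 7900 CPM in Het and 3190 to 3580 CPM in KO. In batch 3 that sum was 6740 to 7420 CPM in WT and 3940 to 4280 CPM in KO. The sum of 6 fibroblast and pericyte markers was 0.815 to 1.26 CPM in WT and 6.35 to 8.22 CPM in KO of batch 1, and 1.49 to 2.99 CPM against 4.71 to 4.77 CPM in batch 3. In batch 1 the means of Col3a1 and Pdgfrb were 3.09 and 3.36 CPM in KO against 0.186 and 0.103 CPM in WT. Col1a1 was at 0.51 against 0.577 CPM there, and Col1a2, Dcn and Lum were at most 0.11 CPM in both. In batch 3 Col3a1 was at 2.25 against 0.556 CPM, Col1a1 at 2.1 against 1.33 CPM and Pdgfrb at 0.248 against 0.195 CPM. The sum of 5 microglia markers was at most 1.98 CPM in any library. Within these lists the markers went different ways. Among progenitor markers the means of Vim, Nes and Fabp7 were lower in KO than in WT (1400, 330 and 735 against 3430, 1190 and 1890 CPM in batch 1), while Sox2 was higher in both batches (752 against 377 and 855 against 442 CPM), as was Msi1 (34.1 against 13.2 and 50.6 against 35.9 CPM). The sum of the 4 astrocyte markers was 212 to 271 CPM in WT and 132 to 307 CPM in KO of batch 1, with Gfap and Aqp4 higher in KO (42.8 and 122 against 3.32 and 13.4 CPM) and Aldh1l1 lower (45.5 against 222 CPM). In batch 3 the astrocyte sum was 118 to 150 CPM in WT and 38.4 to 53.2 CPM in KO. There Aldh1l1 was lower in KO (35.5 against 130 CPM). Gfap, Aqp4 and S100b were higher in KO of batch 3 (1.39, 7.44 and 1.54 against 0.381, 3.22 and 0.517 CPM). The sum of the 4 oligodendrocyte lineage markers found was 451 to 535 CPM in WT and 284 to 308 CPM in KO of batch 1, and 630 to 743 against 596 to 641 CPM in batch 3. The sum of the 6 neuron markers was 1130 to 1180 CPM in WT and 973 to 1170 CPM in KO of batch 1. In batch 3 it was 997 to 1130 CPM in WT and 814 to 978 CPM in KO. Among them Dcx was 3.63 CPM in WT and 28.7 CPM in KO of batch 1, and 8.08 and 10.6 CPM in batch 3. Rbfox3 and Tubb3 had higher means in KO of batch 1 and lower means in KO of batch 3. Syt1, Map2 and Snap25 had lower means in KO in both batches, with Syt1 at 3.39 against 6.28 and 12.3 against 27.5 CPM. Mettl14 itself lay at 22.6 to 24.9 CPM in WT, 22.6 to 24.3 CPM in Het and 20 to 22.4 CPM in KO of batch 1, and at 35.4 to 37.8 CPM in WT and 22.7 to 30.3 CPM in KO of batch 3. A count over the whole locus does not measure the deletion of its floxed part. The part of these marker differences in the results below was not tested. In bulk RNA, fewer cells of a type and less RNA per cell cannot be told apart.

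The promoters of the members were read for 2 sequence elements of these responses. Sequences from 250 bases before to 50 bases after a gene's start, from RefSeq on build GRCm38.p6, were matched for 27 of the 32 genes. The core of the C/EBP-ATF response element, TGATGNAA on either strand with N any base, lay in the promoters of 9 of the 27 (33.3%), against 4.51% of 27025 genes and 3.97% of 32851 promoters. Those 9 were Asns, Atf3, Trib3, Chac1, Slc7a11, Pck2, Herpud1, Gars and Aars. Many members are in the list because they are known as ATF4 targets, so this share is a description of the list. The ER stress element, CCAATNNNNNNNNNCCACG, which binds NF-Y and ATF6, lay in 1 of the 27 (Hspa5, 3.7%) and in 0.137% of genes. The stretches below are those upstream of the start in genes that the results turn on. They read 5′ to 3′ on the gene's strand, with the match in capitals. Asns (minus strand, chr6:7693210-7693262), which makes asparagine, reads the core on its own strand.
Asns: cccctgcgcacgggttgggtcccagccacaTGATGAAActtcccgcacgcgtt
Slc7a11 (minus strand, chr3:50443623-50443709), the cystine importer, holds the core on both strands, the matches close together.
Slc7a11: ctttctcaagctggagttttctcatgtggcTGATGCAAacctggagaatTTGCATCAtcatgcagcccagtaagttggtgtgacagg
Pck2 (plus strand, chr14:55540133-55540200), the gene that rose most in KO cells of batch 3, holds it on the opposite strand.
Pck2: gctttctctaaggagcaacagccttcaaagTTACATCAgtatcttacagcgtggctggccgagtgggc
Gars (plus strand, chr6:55037941-55038000), glycyl-tRNA synthetase, holds it on the opposite strand close to the start.
Gars: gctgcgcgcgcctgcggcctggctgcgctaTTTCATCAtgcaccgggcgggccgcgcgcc
Aars (plus strand, chr8:111033700-111033767), alanyl-tRNA synthetase, holds it on the opposite strand.
Aars: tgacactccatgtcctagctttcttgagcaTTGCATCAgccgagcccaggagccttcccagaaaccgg
Hspa5 (plus strand, chr2:34771995-34772073), the ER chaperone BiP, holds the ER stress element on its own strand.
Hspa5: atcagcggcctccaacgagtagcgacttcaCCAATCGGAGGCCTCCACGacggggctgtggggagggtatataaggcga

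The first comparison asked how these genes differ between KO and WT cells. In batch 1 most of the supply genes were lower in KO cells, led by Slc7a1, Mthfd2 and Asns, while Pck2 and Dnajb9 were higher. Of the 32 genes 23 (71.9%) fell and 2 (6.25%) rose at an adjusted p below 0.05, where 35.0% of the 13677 genes tested fell and 34.3% rose. The median log2 fold change was −0.66 over the 32 and 0.00 over all genes tested. Batch 3 showed fewer calls: 8 of the 32 fell and 3 rose, where 14.4% of 12836 genes fell and 17.3% rose, and the medians were −0.25 and 0.00. In both batches 7 genes fell (Asns, Atf5, Psph, Slc7a11, Slc7a1, Xbp1 and Gars), 2 rose in both (Pck2 and Dnajb9), 16 were called in batch 1 only, 2 in batch 3 only and 5 in neither. The shares of all genes in these classes are not given here, so the class counts are not a result about these genes in particular. Tests were edgeR's quasi-likelihood test, two-sided, with Benjamini-Hochberg adjustment over all genes tested. Each log2 fold change carries its standard error (SE). Lack of overlap between libraries, given for single genes below, was common. Of the 13677 genes of batch 1, 5084 had every KO library below every WT library and 5012 had every one above. Against Het these numbers were 4921 and 4954. In batch 3, of 12836 genes, 4436 lay wholly below and 4436 wholly above WT.

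**Figure D1:**
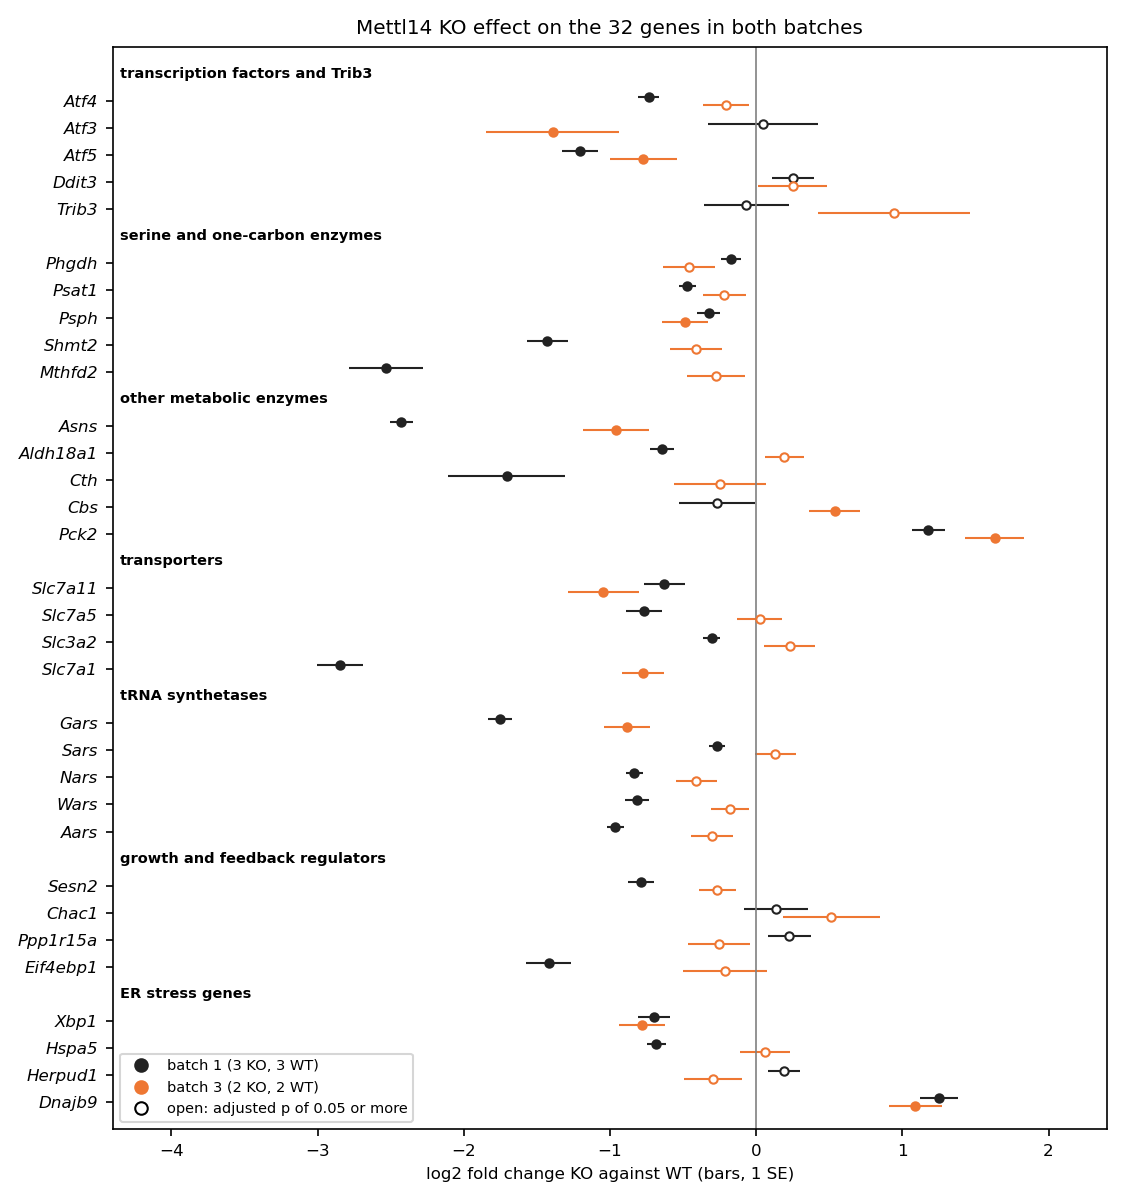
Log2 fold change of KO against WT for the 32 genes (rows, grouped by role), in batch 1 (black, 3 KO and 3 WT libraries) and batch 3 (orange, 2 and 2), with bars of 1 SE and open points where the adjusted p was 0.05 or more. Slc7a1 at −2.85, Mthfd2 at −2.53 and Asns at −2.43 lie farthest left in batch 1, and in batch 3 the same genes lie at −0.77, −0.28 and −0.96.

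In batch 3 the count depended on single libraries. Members gained or lost calls with the library left out, and each such fit leaves 1 library in a group. The shares of all genes called in these fits are not given here, so changes in the count are not a result about these genes in particular. The KO libraries of that batch differed from each other: 28 of the 32 genes were higher in library 2 than in library 1, with a median difference of 0.31 on the log2 scale, against 0.01 over all genes. In no other pair of libraries of 1 group did the members' median differ by more than 0.14 in size. Without KO library 2 the falls of Atf4, Phgdh, Shmt2, Mthfd2, Eif4ebp1, Nars and Aars also passed the test, at log2 fold changes between −0.40 and −0.81 and adjusted p between 0.00021 and 0.0058. Without KO library 1, Trib3 (1.56), Slc3a2 (0.46) and Sars (0.28) were called higher and Sesn2 (−0.30) and Nars (−0.29) lower, at adjusted p between 0.0022 and 0.04.

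The size of the KO effect differed between batches. In a fit of both batches with a genotype by batch term, 12 of the 31 genes that could be fitted differed at an adjusted p below 0.05, where 14.4% of 13589 genes did. In all 12 the log2 effect was more negative in batch 1. They were Asns, Atf4, Shmt2, Mthfd2, Aldh18a1, Slc7a5, Slc7a1, Eif4ebp1, Hspa5, Gars, Wars and Aars, and 3 of these fell in both batches. Psat1 was not in this fit because its batch 1 locus is joined with that of Cep78. Asns, Mthfd2, Aldh18a1, Slc7a1, Gars and Aars passed under each of the 14 alternatives run. Leaving out single libraries changed the number of members that passed, which was 6 without KO library 3 of batch 1. The share of all genes passing in that fit is not given here, so the number is not a result about these genes in particular. Over the 14 alternatives the highest adjusted p was 0.12 for Atf4, 0.11 for Shmt2, 0.12 for Slc7a5, 0.15 for Eif4ebp1, 0.071 for Hspa5 and 0.079 for Wars. Without KO library 1 of batch 1, Atf3 (−1.85), Sesn2 (0.60), Cth (2.299) and Cbs (1.20) passed as well, Atf3 with the more negative effect in batch 3. Without KO library 1 of batch 3, Atf5, Trib3, Slc3a2, Pck2, Sars and Nars passed as well, at 0.50 to 1.59. The batches have separate assemblies and culture lines, so batch, assembly and line cannot be told apart.

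**Figure D2:**
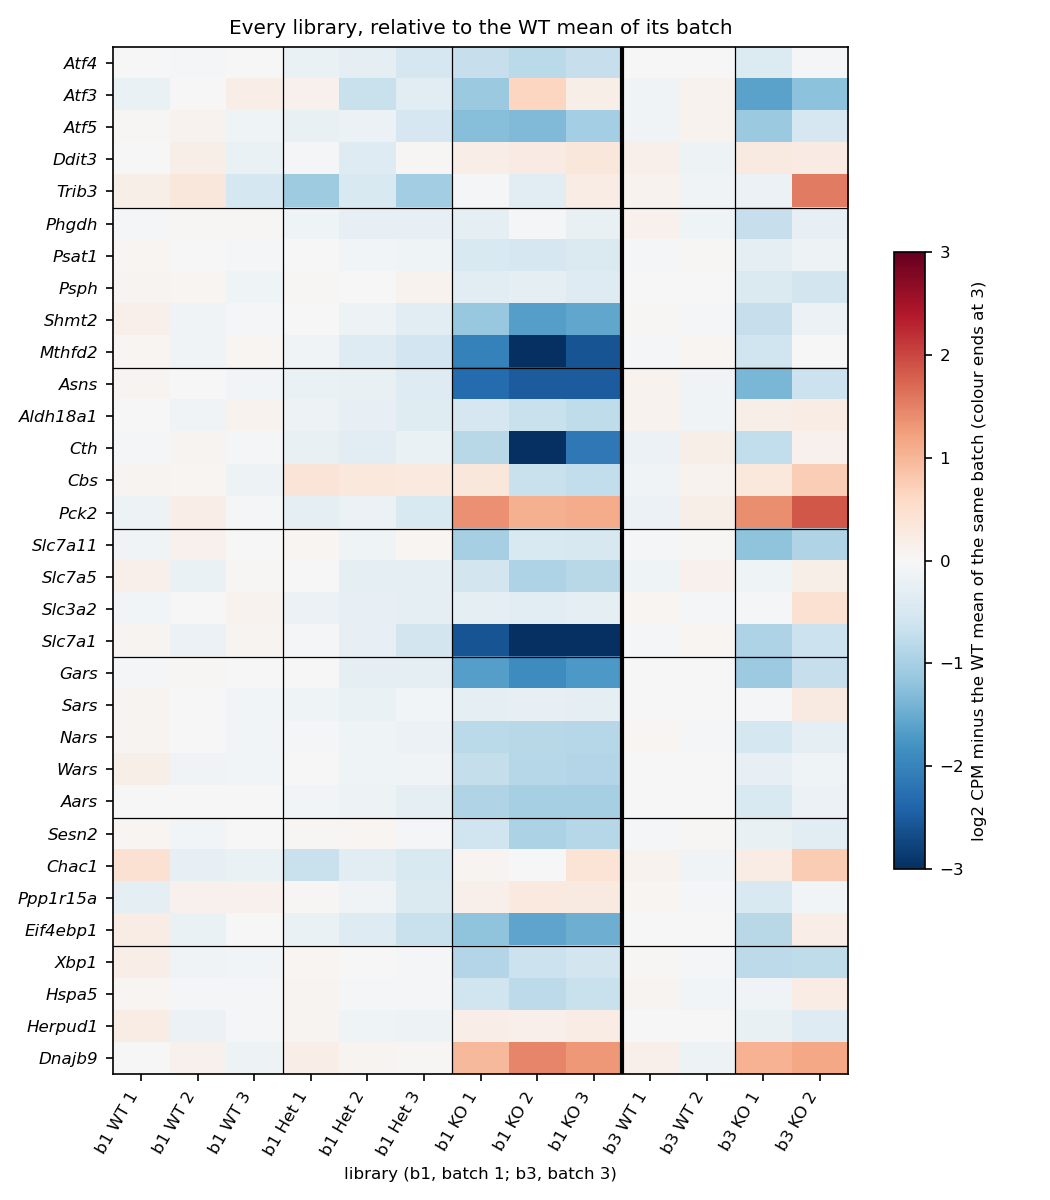
Log2 CPM of each of the 32 genes (rows, by role) in each of the 13 libraries (columns), minus the mean of the WT libraries of the same batch, so that blue is lower and red higher than WT. The 3 KO columns of batch 1 are blue for most rows, with Asns at −2.32, −2.49 and −2.49, and the second KO column of batch 3 is paler than the first, with Asns at −0.64 against −1.37.

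Among the transcription factors, Atf4 and Atf5 fell in batch 1, and Ddit3, Atf3 and the pseudokinase gene Trib3 did not pass the test there. Atf4, the activator of the response, stood at 149, 145 and 149 CPM in WT, 129, 123 and 104 CPM in Het and 90.7, 84.3 and 91.0 CPM in KO of batch 1. The KO libraries did not overlap either of the other groups, and Atf4 fell by 0.74 (SE 0.0743, adjusted p 5.6e-06). In batch 3 Atf4 was 168 and 169 CPM in WT and 127 and 166 CPM in KO, with a log2 fold change of −0.20 that did not pass the test (adjusted p 0.35). Without KO library 2 of batch 3 it was −0.40 with an adjusted p of 0.0058. The difference between batches was 0.49 (SE 0.141, adjusted p 0.042), and it was lost when any 1 library other than KO library 1 of either batch was left out, with adjusted p from 0.071 to 0.12.

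Atf5, a related factor whose messenger RNA is also translated under stress, was 22.4, 23.6 and 20.1 CPM in WT and 9.004, 8.85 and 10.9 CPM in KO of batch 1. Batch 3 had 26.3 and 30.8 CPM in WT and 13.2 and 20.2 CPM in KO, so in both batches every KO library lay below every WT library. It fell by 1.21 (SE 0.125, adjusted p 7e-06) and by 0.77 (SE 0.229, adjusted p 0.034). Without WT library 2 the batch 3 value was −0.66 with an adjusted p of 0.13. Exons of Nup62 overlap Atf5 on the other strand, as those of Mars overlap Ddit3 and those of Ndufa4l2 overlap Shmt2. Whether counting used strand is not given in the sources used here, so reads of such pairs cannot be told apart.

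Ddit3, which encodes the stress factor CHOP, was 8.59 to 11.2 CPM in WT and 11.3 to 12.4 CPM in KO of batch 1 (log2 fold change 0.25, SE 0.143, adjusted p 0.14). Trib3, an inhibitor of ATF4 that ATF4 itself induces, was 1.31 to 2.37 CPM in WT and 1.49 to 2.19 CPM in KO, and the groups overlapped. In batch 3 its KO libraries were 2.32 and 7.70 CPM, and the test did not call it (log2 fold change 0.94, SE 0.52, adjusted p 0.2). It was 1.56 with an adjusted p of 0.0022 without KO library 1. Atf3, a factor induced by many stresses, was 1.26, 4.28 and 3.10 CPM in KO of batch 1, on both sides of its WT range of 2.38 to 3.14 CPM. In batch 3 Atf3 fell by 1.39 (SE 0.456, adjusted p 0.048), from 1.49 and 1.76 CPM to 0.531 and 0.689 CPM. With limma on log2(FPKM + 1) the value was −0.46. The call was lost under 9 of 11 alternatives, each of the 4 left-out libraries included (adjusted p 0.17 and 0.28 without WT library 1 and 2, and 0.13 and 0.079 without KO library 1 and 2).

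The enzymes of serine synthesis and mitochondrial one-carbon metabolism all fell in batch 1, 5 of 5, by very different amounts. Phgdh, Psat1 and Psph carry out the steps from a glycolytic intermediate to serine. Psat1 was 476 to 517 CPM in WT and 348 to 365 CPM in KO of batch 1 and fell by 0.47 (SE 0.0559, adjusted p 2e-05). That value includes the joined gene Cep78. In batch 3, where Psat1 has a locus of its own, it was 459 and 484 CPM in WT and 386 and 425 CPM in KO (log2 fold change −0.22, adjusted p 0.29). Phgdh was close to the threshold in batch 1, at −0.17 (SE 0.0696, adjusted p 0.045) with WT at 387 to 411 CPM and KO at 334 to 395 CPM, which overlap. It missed the threshold under 7 of 14 alternatives, with adjusted p of 0.11, 0.1, 0.14 and 0.15 without WT library 2, WT library 3, KO library 1 and KO library 3. In batch 3 Phgdh was 361 and 298 CPM in WT and 204 and 274 CPM in KO, with a log2 fold change of −0.46 (adjusted p 0.082).

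Psph, which releases free serine, was 49.4, 49.0 and 42.5 CPM in WT and 37.9, 38.6 and 36.0 CPM in KO of batch 1. Batch 3 had 33.6 and 33.9 CPM in WT and 25.2 and 23.0 CPM in KO, again with no overlap. It fell by 0.32 (SE 0.0778, adjusted p 0.0031) and by 0.49 (SE 0.155, adjusted p 0.044). DESeq2 gave an adjusted p of 0.074 in batch 3, and without WT library 1 or 2 it was 0.25 or 0.29.

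Shmt2 and Mthfd2, the mitochondrial enzymes that pass the carbon of serine to folate, fell more. Shmt2 was 116, 98.8 and 102 CPM in WT and 48.4, 33.4 and 35.9 CPM in KO of batch 1, a fall of 1.43 (SE 0.141, adjusted p 1.2e-05). Shmt2 in batch 3 was 151 and 142 CPM in WT and 90.1 and 130 CPM in KO (−0.41, SE 0.178, adjusted p 0.11). Mthfd2 was 59.5, 52.5 and 59.0 CPM in WT, 53.2, 43.3 and 38.5 CPM in Het and 13.9, 6.17 and 9.39 CPM in KO of batch 1. Every KO library lay under every Het and WT library, and Mthfd2 was 5.78-fold lower in KO than in WT (log2 fold change −2.53, SE 0.253, adjusted p 2.4e-05). In batch 3 its WT libraries were at 57.9 and 63.3 CPM and its KO libraries at 40.2 and 59.7 CPM, which overlap (−0.28, SE 0.198, adjusted p 0.32). Without KO library 2 the batch 3 values of Shmt2 and Mthfd2 were −0.69 and −0.58, with adjusted p of 0.00021 and 0.0033. The difference between batches was 0.97 for Shmt2 (SE 0.242, adjusted p 0.027) and 2.21 for Mthfd2 (SE 0.358, adjusted p 0.0062). For Shmt2 that difference missed the threshold without WT library 1 or KO library 3 of batch 1 and without WT library 1, WT library 2 or KO library 2 of batch 3, with adjusted p from 0.057 to 0.11.

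Asns, asparagine synthetase, spans chr6:7675170-7693182 on build mm10 in the authors' assembly of batch 1. It stood at 121, 113 and 108 CPM in WT, 98.8, 98.2 and 87.6 CPM in Het and 22.8, 20.3 and 20.3 CPM in KO of batch 1. The values in batch 3 were 98.9 and 86.5 CPM in WT and 35.9 and 59.3 CPM in KO. The 5 KO libraries lay below every WT library of their batch. Asns was 5.38-fold lower in KO of batch 1 (log2 fold change −2.43, SE 0.0773, adjusted p 8.7e-09) and 1.95-fold lower in batch 3 (−0.96, SE 0.225, adjusted p 0.014). The difference between those effects was 1.42 (SE 0.235, adjusted p 0.0063).

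Pck2, the mitochondrial enzyme that makes phosphoenolpyruvate and a known ATF4 target, went the other way. It was 27.2, 34.7 and 29.8 CPM in WT, 24.7, 26.8 and 22.3 CPM in Het and 78.4, 63.2 and 65.8 CPM in KO of batch 1. The batch 3 values were 21.5 and 27.04 CPM in WT and 63.2 and 87.2 CPM in KO. No KO library overlapped the WT libraries. Pck2 rose 2.26-fold in batch 1 (log2 fold change 1.18, SE 0.115, adjusted p 4.4e-06) and 3.1-fold in batch 3 (1.63, SE 0.202, adjusted p 0.0012). The difference between the batches was 0.41 (SE 0.226, adjusted p 0.23). Asns and Pck2 thus moved in opposite directions in both batches. Both promoters hold the TGATGNAA core printed above, and the part of that core in these changes was not tested.

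Aldh18a1, which makes the precursor of proline and ornithine, was 114, 107 and 123 CPM in WT and 80.8, 72.2 and 67.6 CPM in KO of batch 1 and fell by 0.64 (SE 0.0824, adjusted p 3.5e-05). In batch 3 its KO libraries, at 91.9 and 94.7 CPM, lay above the WT libraries at 87.4 and 75.8 CPM, and the log2 fold change was 0.19 (SE 0.133, adjusted p 0.3). The batch difference was 0.79 (SE 0.142, adjusted p 0.0078). Cth, which makes cysteine from cystathionine, fell by 1.71 in batch 1 (SE 0.399, adjusted p 0.0036), from 7.80 to 8.61 CPM in WT to 4.53, 0.914 and 1.83 CPM in KO. Its value was −2.59 without KO library 1 and −1.30 without KO library 2. In batch 3 it was 8.53 and 10.8 CPM in WT and 5.71 and 10.4 CPM in KO (adjusted p 0.59). Cbs, which makes cystathionine, was split in KO of batch 1, with library 1 at 64.1 CPM and the others at 31.98 and 30.6 CPM, around a WT range of 45.8 to 53.9 CPM. Its log2 fold change there was −0.27 (SE 0.258, adjusted p 0.38), and −0.70 with an adjusted p of 2.8e-05 without KO library 1. In batch 3 Cbs rose by 0.54 (SE 0.175, adjusted p 0.047), from 47.6 and 55.6 CPM to 64.4 and 85.3 CPM. That call was lost under 6 of 11 alternatives, with adjusted p of 0.33, 0.098 and 0.063 without WT library 1, WT library 2 and KO library 2.

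All 4 transporters fell in batch 1. Slc7a1, the main importer of arginine and lysine, had the most negative log2 fold change of the 32 genes in that batch. It was 112, 94.0 and 112 CPM in WT, 101, 89.0 and 72.2 CPM in Het and 17.6, 13.2 and 13.2 CPM in KO, 7.18-fold lower in KO (log2 fold change −2.85, SE 0.156, adjusted p 3e-07). In batch 3 it was 163 and 176 CPM in WT and 89.5 and 109 CPM in KO, 1.71-fold lower (−0.77, SE 0.143, adjusted p 0.0057). KO and WT libraries did not overlap in either batch, and the effects differed by 2.03 (SE 0.193, adjusted p 0.00039).

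Slc7a11, the cystine and glutamate exchanger, fell in both batches. It was 20.9, 24.3 and 22.1 CPM in WT and 11.2, 16.4 and 16.0 CPM in KO of batch 1. The batch 3 values were 10.6 and 11.2 CPM in WT and 4.71 and 5.86 CPM in KO. The falls were 0.63 (SE 0.14, adjusted p 0.0019) and 1.04 (SE 0.241, adjusted p 0.014). In batch 3 the adjusted p was 0.067 without WT library 2, and 0.075 to 0.11 with limma on log2 FPKM, a unit scaled to transcript length as well as depth. Its batch 1 call was lost in 1 alternative, limma on FPKM with no filter (adjusted p 0.059).

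Slc7a5 and Slc3a2 encode the light and heavy chains of the large neutral amino acid transporter. Slc7a5 was 124, 98.5 and 115 CPM in WT and 76.7, 58.8 and 63.0 CPM in KO of batch 1 and fell by 0.77 (SE 0.124, adjusted p 0.00033). The groups overlapped in batch 3, at 187 and 223 CPM in WT and 187 and 229 CPM in KO (log2 fold change 0.02, SE 0.156, adjusted p 0.92). The difference was 0.75 (SE 0.198, adjusted p 0.031), and it missed the threshold without WT library 1, WT library 3, KO library 2 or KO library 3 of batch 1 and without WT library 1 or KO library 2 of batch 3, with adjusted p from 0.063 to 0.12. Slc3a2 fell by 0.30 in batch 1 (SE 0.0566, adjusted p 0.00055), from 142 to 161 CPM in WT to 119 to 124 CPM in KO. In batch 3 it was 147 and 134 CPM in WT and 137 and 193 CPM in KO (0.23, adjusted p 0.35), and 0.46 with an adjusted p of 0.0034 without KO library 1. With limma on FPKM the batch 1 value of Slc3a2 was −0.14 (adjusted p 0.063).

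The 5 aminoacyl-tRNA synthetases, which load amino acids onto transfer RNA, all fell in batch 1. Gars was 172, 181 and 179 CPM in WT, 175, 148 and 145 CPM in Het and 56.2, 48.2 and 53.4 CPM in KO of batch 1. Gars in batch 3 was 222 and 227 CPM in WT and 105 and 138 CPM in KO. The groups did not overlap in either batch, with falls of 1.75 (SE 0.0821, adjusted p 5.1e-08) and 0.88 (SE 0.159, adjusted p 0.0051). With limma on FPKM and no filter the batch 3 adjusted p was 0.068.

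Aars was 238, 238 and 243 CPM in WT and 128, 121 and 120 CPM in KO of batch 1, a fall of 0.96 (SE 0.0593, adjusted p 1.9e-07). In batch 3 it was 176 and 172 CPM in WT and 127 and 155 CPM in KO, which do not overlap (log2 fold change −0.30, SE 0.142, adjusted p 0.14). Wars was 108, 88.9 and 90.7 CPM in WT and 58.1, 53.2 and 52.3 CPM in KO of batch 1, a fall of 0.82 (SE 0.0834, adjusted p 6.2e-06). Both groups of Wars in batch 3 were close, at 81.5 and 81.2 CPM in WT and 69.0 and 74.5 CPM in KO (−0.18, SE 0.129, adjusted p 0.32). The batch differences were 0.82 for Gars, 0.62 for Aars and 0.59 for Wars, with adjusted p of 0.0087, 0.012 and 0.024. For Wars that difference missed the threshold without KO library 2 or 3 of batch 1 and without WT library 1, WT library 2 or KO library 2 of batch 3, with adjusted p from 0.052 to 0.079.

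Nars fell by 0.83 in batch 1 (SE 0.0563, adjusted p 3.4e-07), and in batch 3 its −0.41 missed the threshold (SE 0.139, adjusted p 0.054). Leaving out either KO library of batch 3 brought Nars under it, at adjusted p of 0.036 and 0.0013. Sars had the smallest change of the 5 in batch 1, a fall of 0.27 (SE 0.0529, adjusted p 0.00086), and it was 0.13 in batch 3 (adjusted p 0.51), or 0.28 with an adjusted p of 0.039 without KO library 1.

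Of the growth and feedback regulators, Sesn2 and Eif4ebp1 fell in batch 1 and none of the 4 was called in batch 3 by edgeR, DESeq2 or limma, with 0 of them at an unadjusted p below 0.05 in edgeR. The batch 3 log2 fold changes of the 4 were between −0.27 and 0.51. Eif4ebp1, the repressor of cap-dependent translation that mTORC1 inhibits, was 40.8, 30.8 and 34.7 CPM in WT and 15.3, 11.7 and 12.7 CPM in KO of batch 1, a fall of 1.42 (SE 0.152, adjusted p 9.8e-06). In batch 3 its KO libraries were 19.4 and 39.6 CPM, on both sides of WT at 34.2 and 34.5 CPM (−0.21, SE 0.289, adjusted p 0.61). Without KO library 2 it was −0.81 with an adjusted p of 0.00093. The batch difference was 1.16 (SE 0.344, adjusted p 0.047), and it was lost whenever 1 library other than KO library 1 of either batch was left out, with adjusted p from 0.057 to 0.15. Without KO library 2 of batch 3 the difference was 0.57.

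Sesn2, a sensor of leucine that restrains mTORC1, was 64.0 to 71.0 CPM in WT and 35.2 to 44.9 CPM in KO of batch 1, a fall of 0.79 (SE 0.0885, adjusted p 1.3e-05). Without KO library 1 of batch 3 its value there was −0.30 (adjusted p 0.04). Chac1, which degrades glutathione, and Ppp1r15a, the phosphatase subunit that reverses eIF2 phosphorylation, were low throughout. Chac1 lay between 2.51 and 5.46 CPM and Ppp1r15a between 7.78 and 15 CPM over the 13 libraries. Neither passed the KO against WT test in batch 1, with log2 fold changes of 0.14 (adjusted p 0.6) and 0.23 (adjusted p 0.2).

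The ER stress genes split. Xbp1, the factor activated by splicing of its RNA, was 38.3, 30.9 and 31.4 CPM in WT and 18.1, 21.2 and 22.8 CPM in KO of batch 1. Batch 3 had 34.2 and 32.8 CPM in WT and 19.3 and 19.6 CPM in KO. It fell by 0.70 (SE 0.11, adjusted p 0.00016) and by 0.78 (SE 0.157, adjusted p 0.0078), with no overlap. In batch 3 its adjusted p was 0.056 without WT library 1. The locus count does not separate spliced from unspliced Xbp1.

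Dnajb9, an ER co-chaperone of BiP and a target of XBP1, was 11.7, 12.6 and 10.4 CPM in WT, 13.2, 12.2 and 11.9 CPM in Het and 22.6, 31.6 and 28.5 CPM in KO of batch 1. In batch 3 it was 15.8 and 12.8 CPM in WT and 29.1 and 31.8 CPM in KO. Every KO library lay above every WT library, with rises of 2.38-fold (log2 fold change 1.25, SE 0.132, adjusted p 7.9e-06) and 2.13-fold (1.09, SE 0.183, adjusted p 0.0038). Dnajb9 and Xbp1 thus moved in opposite directions in both batches.

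Hspa5 was 569, 533 and 526 CPM in WT and 360, 315 and 339 CPM in KO of batch 1 and fell by 0.68 (SE 0.0656, adjusted p 3.9e-06). The groups overlapped in batch 3, at 516 and 453 CPM in WT and 451 and 563 CPM in KO (0.06, SE 0.171, adjusted p 0.8). The difference was 0.70 (SE 0.158, adjusted p 0.019), with adjusted p of 0.053 without KO library 3 of batch 1 and 0.071 without WT library 2 of batch 3. Herpud1, part of the machinery that removes misfolded ER protein, was 17.7 to 23.2 CPM in WT and 22.4 to 23.5 CPM in KO of batch 1 (0.19, adjusted p 0.15). It was called higher in batch 1 when WT library 1 was left out (0.30, adjusted p 0.028).

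**Figure D3:**
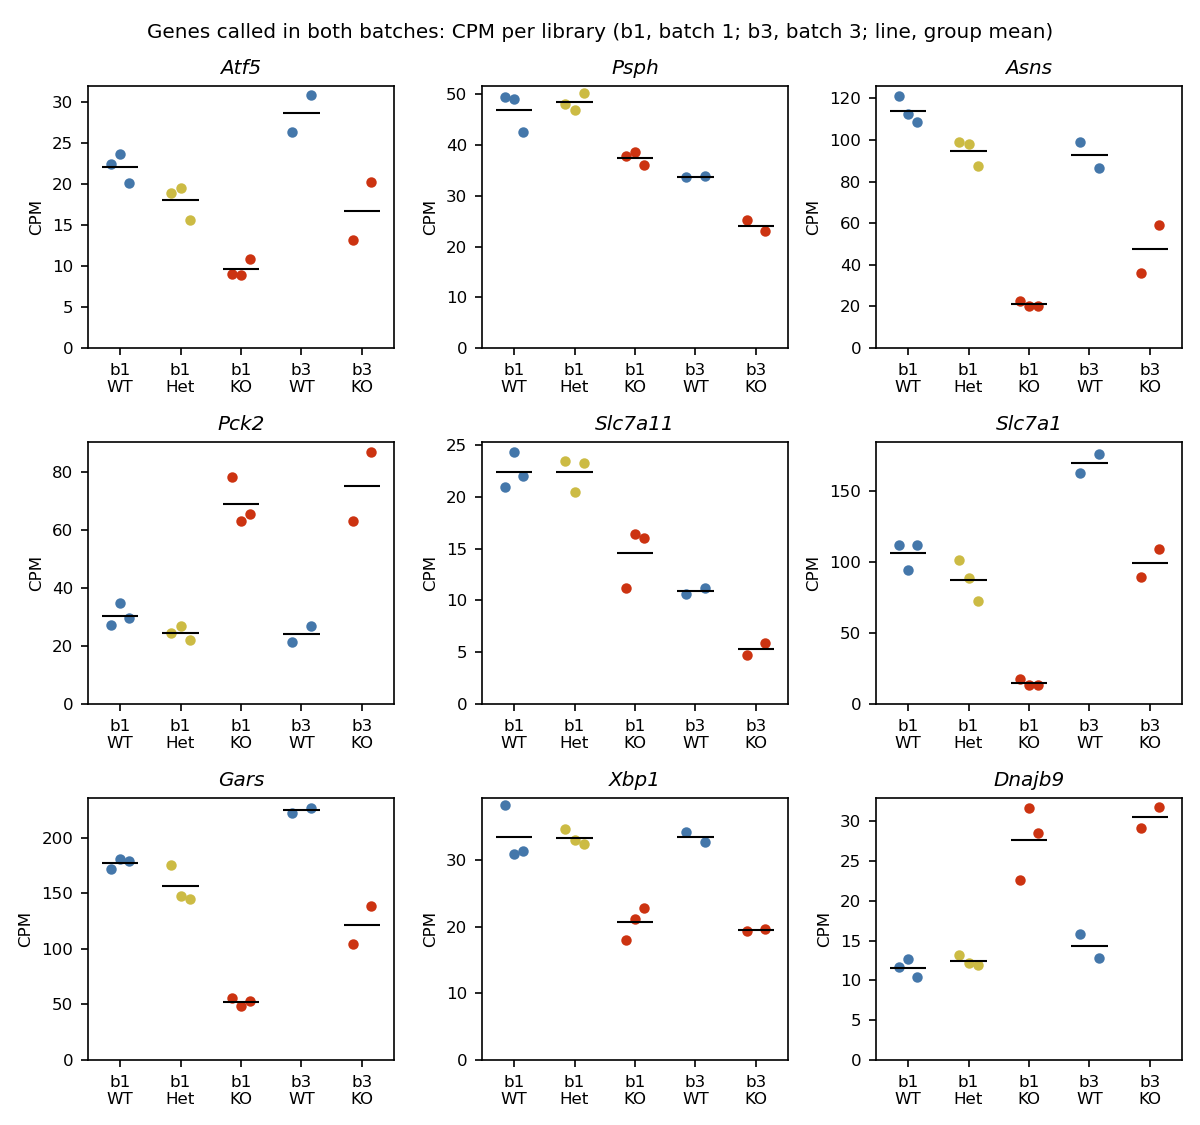
CPM in each library (points) with the group mean (line) for the 9 genes called in the same direction in both batches; columns are the 3 genotypes of batch 1, then WT and KO of batch 3, and each axis starts at 0. Pck2 and Dnajb9 are higher and the other 7 genes lower in KO than in WT of the same batch.

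Heterozygous cells differed from WT by no call among the 32 genes. Over all genes edgeR called 2 of 13677 (0.0146%), and DESeq2 and limma called none of the 32 either. The smallest adjusted p of a member was 0.44, for Atf4. At an unadjusted p below 0.05 there were 13 of the 32 (40.6%), all lower in Het, where 8.59% of genes were below that value, 597 of them higher and 578 lower. The log2 value was below 0 for 27 of the 32 and for 50.4% of all genes. The members also moved together between libraries of 1 genotype. Of the 32, only 5 were higher in Het library 2 than in Het library 1, against 49.7% of all genes. In Het library 3 it was 6, against 49.5%. The members' medians of these differences were −0.10 and −0.14, and that of Het against WT was −0.175. These counts thus cannot be told apart from differences between libraries. Asns was at −0.26 (SE 0.0708, unadjusted p 0.0033, adjusted p 0.5), with its 3 Het libraries below its 3 WT libraries, and Atf4 at −0.32 (SE 0.0736, unadjusted p 0.0013). These 2 also did not overlap in KO against Het. Over all 13677 genes, 1015 had every Het library below every WT library and 1014 had every one above.

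Against Het, 21 of the 32 genes fell in KO and 6 rose, where 34.2% of genes fell and 33.8% rose. This comparison shares its KO libraries with KO against WT. The 6 that rose were Pck2 (1.49, SE 0.116, adjusted p 9.5e-07), Dnajb9 (1.15, SE 0.131, adjusted p 1.5e-05), Ddit3 (0.37, adjusted p 0.04), Trib3 (0.79, adjusted p 0.042), Chac1 (0.66, adjusted p 0.023) and Ppp1r15a (0.39, adjusted p 0.036). The last 4 encode stress-induced factors, and none of them passed against WT. With limma on log2 FPKM only Pck2 and Dnajb9 of these 6 were called, with 22 members lower, and that unit set the median of all genes at −0.13 in place of 0.01. Each of the 4 was also lost in the edgeR test when single libraries were left out: Ddit3 without any 1 Het or KO library except Het library 3 (adjusted p 0.05 to 0.15), Trib3 without Het library 1, Het library 3, KO library 1 or KO library 3 (0.077 to 0.13), Chac1 without Het library 1, Het library 3 or KO library 3 (0.05 to 0.091) and Ppp1r15a without Het library 2, Het library 3, KO library 2 or KO library 3 (0.06 to 0.14). Sars, lower by a log2 value of 0.13 in the main test, was lost without any 1 of those libraries except Het library 2 (0.067 to 0.12). Cbs was called lower (−1.03, adjusted p 1.5e-06) and Atf3 higher (0.69, adjusted p 0.041) without KO library 1, and without Het library 1 Herpud1 was called higher (0.34, adjusted p 0.03).

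Levels between genes can be compared in FPKM, which the authors' tables also give. In WT cells of batch 1 Phgdh was the highest, at 276 ± 13 FPKM (SD, n = 3), then Psat1 at 238 ± 9.9, whose locus includes Cep78, and Hspa5 at 215 ± 0.21. Atf4 followed at 120 ± 3.0 and Sars at 107 ± 3.8. Gars, Nars and Aars lay within their spread of each other, at 77.4 ± 5.0, 77.4 ± 3.8 and 75.5 ± 3.8 FPKM. Asns was ninth at 62.3 ± 2.8 FPKM. The lowest were Slc7a11 at 1.96 ± 0.27, Atf3 at 1.49 ± 0.25 and Trib3 at 1.28 ± 0.33, of which the last 2 did not differ beyond their spread. In batch 3 Psat1, Phgdh, Hspa5 and Atf4 were again the 4 highest, at 250 ± 23, 183 ± 45, 171 ± 0.21 and 129 ± 9.1 FPKM (SD, n = 2).

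In all, 7 lists of other genes of the same pathways were counted in the same fits. Like the members, these lists were chosen with earlier results of these data known. Beside their counts stand the shares of all genes given above, 35.0% lower and 34.3% higher in batch 1 and 14.4% and 17.3% in batch 3. Of the 15 other aminoacyl-tRNA synthetases, 14 fell and 0 rose in batch 1, and 11 fell and 0 rose in batch 3, where limma on FPKM called 2. Their medians were −1.09 and −0.59. All 11 fell in both batches, and the lysine, valine and isoleucine enzymes Kars, Vars and Iars, the 3 with the largest batch 1 effects, were at −1.54, −1.33 and −1.28 in batch 1 and −0.66, −0.62 and −0.83 in batch 3. Of the 23 other amino acid and folate enzymes, 15 fell and 4 rose in batch 1 and 8 fell and 4 rose in batch 3. The branched-chain aminotransferase gene Bcat1 was at −2.75 and −1.35, the cytosolic counterpart of Shmt2, Shmt1, at −2.62 and −0.87, and the folate enzyme Aldh1l1, which is also an astrocyte marker, at −2.29 and −1.88.

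Of the 13 other amino acid transporters tested, 6 fell (46.2%) and 6 rose in batch 1 and 3 fell (23.1%) and 2 rose in batch 3, with medians of −0.02 in both. The glutamine transporter Slc1a5 was at −2.99 and −1.71, Slc43a1, which carries branched-chain amino acids, at −2.37 and −1.81, and Slc38a7, another glutamine transporter, at 1.03 and 0.96. Of the 15 eIF2 kinase, eIF2 and eIF2B genes, 11 fell and 3 rose in batch 1 and 3 fell and 1 rose in batch 3. Eif2s1, the subunit of eIF2 that is phosphorylated, was at −1.09 and −0.53, the eIF2B subunit gene Eif2b3 at −0.96 and −0.80 and the adaptor gene Nck1 at 0.88 and 1.13.

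Of 17 other partners, relatives and targets of the ATF4 pathway tested, 5 fell (29.4%) and 6 rose in batch 1, near the shares of all genes, and 1 fell and 4 rose in batch 3. Sesn3, a relative of Sesn2, was at 1.21 and 0.94, the autophagy gene Map1lc3b at 0.89 and 0.65 and Cebpg, a partner of ATF4, at 0.48 and 0.44. Of 18 genes of amino acid sensing by mTORC1, 6 fell (33.3%) and 8 rose in batch 1, also near those shares, and 1 fell and 5 rose in batch 3. Rragd, one of the Rag GTPases, was at 1.75 and 1.82, and the GATOR2 subunit genes Seh1l and Wdr24 were at −1.30 and 0.76 in batch 1 and −0.96 and 0.80 in batch 3. Of the ER stress sensors and chaperones, 13 of 24 fell and 5 rose in batch 1. In batch 3 edgeR called 0 of 23, with 5 at an unadjusted p below 0.05, while DESeq2 called 1 lower and limma on FPKM 1 higher. For Het against WT edgeR called 0 of the 125 entries in the 7 lists (13 had an unadjusted p below 0.05), DESeq2 called 1 and limma called none.

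The mark H3K27ac, histone H3 acetylated at lysine 27, is found at active promoters and enhancers, and H3K27me3, trimethylation of the same lysine, at genes held silent by Polycomb. Peak lists of each line were read for a peak within 1000 bases of an annotated start. H3K27ac was present at all 32 genes in both WT and both KO lines, as it was at 88.0% of the 13222 genes tested in all 4 lines. At Asns the authors' fold enrichment of the best H3K27ac peak was 9.29 and 7.43 in WT and 5.93 and 9.79 in KO lines, so the genotypes overlapped while its RNA did not. At Slc7a1 it was 7.65 and 9.76 in WT and 7.24 and 11.6 in KO lines, and at Pck2, whose RNA rose, 4.14 and 4.21 in WT and 4.79 and 4.35 in KO lines. With 1 list per line and no depth in the files, these values were not tested.

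H3K27me3 lay at 4 of the 32 starts in at least 1 line, against 18.4% of genes, and at 1 in all 4 lines, against 7.74%. That gene was Atf3, with peaks 7941 to 14360 bases wide and a best fold enrichment of 7.53 and 8.14 in WT and 9.71 and 8.07 in KO lines. Trib3 had a peak in both KO lines (4.27 and 3.25) and in neither WT line, Phgdh in 1 KO line (3.45) and Pck2 in 1 WT line (3.31). At a −log10 q of at least 5 Atf3 was the only one left, where 6.48% of genes held a peak in any line and 2.87% in all 4. Within 250 bases 2 of the 32 genes held a peak in any line, against 13.7% of genes, and 0 in all 4, against 4.9%.

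m6A, the mark that the Mettl14 complex writes, was read from 4 peak lists of WT cells that combine 2 immunoprecipitates with 2 inputs. Because the lists share libraries they are not replicates. A peak touched an exon in all 4 lists for 13 of the 32 genes, against 41.7% of the 14250 genes tested, and in at least 1 list for 27, against 65.8%. No list had a peak in Asns, Shmt2, Mthfd2, Cth or Wars. The 13 were Atf5, Trib3, Chac1, Sesn2, Aldh18a1, Slc7a5, Slc7a1, Pck2, Ppp1r15a, Eif4ebp1, Hspa5, Dnajb9 and Aars. Peaks were matched to exons without regard to strand. Where exons of Nup62 overlap Atf5, or those of Mars overlap Ddit3, a peak cannot be assigned to 1 gene of the pair. The authors' fold enrichment of immunoprecipitate over input reached 6.80 in Trib3 and 6.16 in Dnajb9. All 9 peaks of Slc7a1 touched its last exon, with fold enrichments of 2.90 to 4.05, and in Pck2 it was 4 of 5 peaks, with 3.57 to 4.44. With only peaks at a −log10 q of at least 5, 2 of the 32 genes kept a peak in all 4 lists, against 7.78% of genes.

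**Figure D4:**
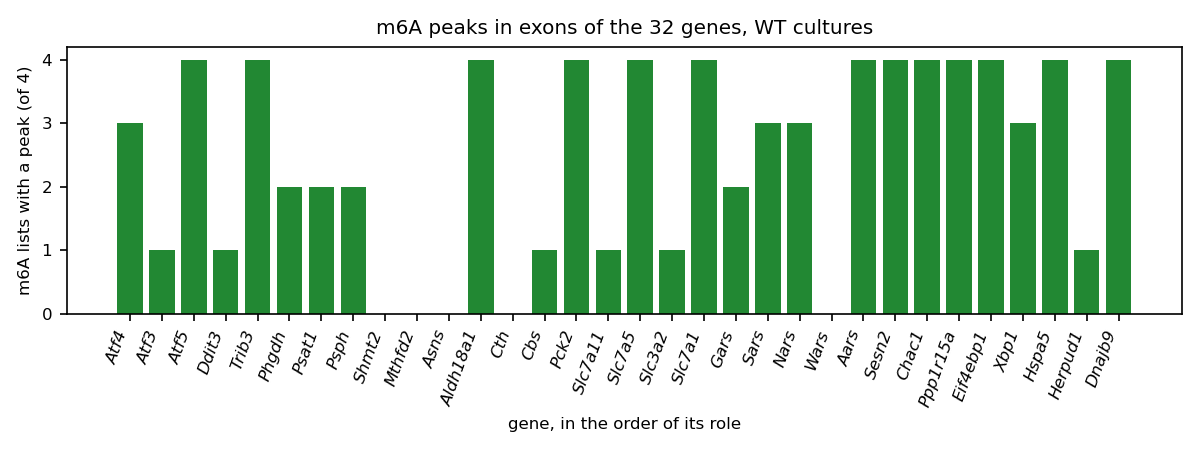
Number of the 4 WT m6A peak lists in which a peak touches an exon of each of the 32 genes, in the order of their roles. Asns, Shmt2, Mthfd2, Cth and Wars stand at 0 and 13 genes at 4.

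The KO effect was set beside the m6A lists as a description with no test. The 5 genes without a peak all fell in batch 1, with a median log2 fold change of −1.71 and a range of −2.53 to −0.81. Of the 13 genes with a peak in all lists, 8 fell and 2 rose in batch 1, with a median of −0.68 and a range of −2.85 to 1.25. Of the 14 genes in between, 10 fell and 0 rose, with a median of −0.31. In batch 3 the 3 medians were −0.28, 0.02 and −0.35. Genes with and without a peak were thus found among the strongest falls in batch 1, Slc7a1 on one side and Mthfd2 and Asns on the other.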

How the data were processed

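RNA of 13 libraries was analysed from the deposited tables of batches 1 and 3. The 6 libraries of batch 2 were not analysed here because their table equals that of batch 1. Per the file headers the deposited tables give raw fragments per locus, which are estimated counts (5.31% and 2.31% were not whole within 1e-9), and FPKM, scaled by the authors. TopHat, TopHat2 2.1.0, Cuffdiff, Cufflinks, MACS2 and Bowtie2 2.3.1 are named with build mm10 in the submitters' processing notes, with no order or role. Each deposited peak has a fold enrichment (a ratio), a −log10 q and a score, per the file headers. Fragments were rounded and summed by gene name. Loci with no gene name held 0.352% to 2.16% of fragments and were left out. edgeR 4.0.16 was run with TMM factors (0.972 to 1.04), filterByExpr and the robust quasi-likelihood test, with 1 fit of the 9 batch 1 libraries, 1 of the 4 batch 3 libraries and 1 of both batches with their interaction. A call is an adjusted p below 0.05. SE is the log2 fold change divided by the root of F. CPM use the TMM factors. The alternatives were DESeq2 1.42.0, limma 3.58.1 on log2(FPKM + 0.1) or + 1, other filters and scaling, and left-out libraries. The code was tested on simulated data. Replicates differed by more than counting noise (chi-square per degree of freedom 7.45 to 35.8).

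Values in every WT and KO library are given for genes called in the same direction in both batches. They are also given for genes called in batch 1 with an effect that differs between batches, or called in Het. The Het libraries are given for some of these genes only. Atf3, Trib3, Cbs and other genes given by library were added after their values were seen. Of each pathway list the 3 genes with the largest batch 1 effect among those called alike in both batches are named. The members and lists were chosen with earlier results of these data known. A search for genes whose levels follow Asns is not reported, because the KO libraries of batch 1 form a cluster of their own. R 4.3.3 and Python 3.11.15 were used.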

Additional observations from a re-analysis of the deposited data

Results flagged for a closer look

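In 12 genes the KO effect differed between batches by the genotype by batch term, each given here as the batch 3 effect minus the batch 1 effect on the log2 scale (edgeR's quasi-likelihood test, adjusted p below 0.05). The differences were 2.21 for Mthfd2, 2.03 for Slc7a1, 1.42 for Asns, 1.16 for Eif4ebp1, 0.97 for Shmt2, 0.82 for Gars, 0.79 for Aldh18a1, 0.75 for Slc7a5, 0.70 for Hspa5, 0.62 for Aars, 0.59 for Wars and 0.49 for Atf4. All 12 fell in KO cells of batch 1 and had a less negative log2 fold change in batch 3, where Aldh18a1, Hspa5 and Slc7a5 were at 0.19, 0.06 and 0.02. Groups held 2 or 3 libraries, so single libraries were not screened for standing apart within a group.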

How the results depend on the processing

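Over the 2127 member values recomputed under the alternatives, 116 lost a call and 36 gained one. On the other side of 0 from the main value were 54 of them, in 22 member and comparison pairs. The main test called none of those pairs, and 51 of the 54 values were not called either. The 3 that were called are Phgdh for KO against Het, which is 0.03 in the main test and −0.308, −0.307 and −0.308 with limma on log2(FPKM + 0.1), log2(FPKM + 1) and log2(FPKM + 0.1) with no filter. In batch 3 the 11 members called became 7, 7 and 6 with the same 3 limma settings and ranged from 6 to 16 when a library was left out. The 12 members whose effect differs between batches ranged from 6 to 18 when a library was left out. The shares of all genes called in these fits are not given here. Changes in these counts are thus not a result about these genes in particular. Of the members called, 22 of 25 in batch 1 and 4 of 11 in batch 3 (Asns, Slc7a1, Pck2 and Dnajb9) were called under every alternative run. H3K27me3 lay at 4 starts in any line, 1 with a −log10 q of at least 5 and 2 within 250 bases. The shares of all genes under these settings were 18.4%, 6.48% and 13.7%. m6A in all 4 lists went from 13 genes to 2 with a −log10 q of at least 5, and the share of all genes from 41.7% to 7.78%. The cause of these changes was not tested. Where a left-out library leaves 1 sample in a group of batch 3, that sample is assumed to vary like the other group. No paired analysis was possible because the tables tie no library number to a culture line, and the peak lists were compared without a test.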
